A study of Homo sapiens with 12 samples.

Results

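The miR-130 and miR-301 family was followed in 2 human embryonal carcinoma cell lines, 2102Ep and NTera-2, after knock-down of the pluripotency factor SOX2. Members were the assays named miR-130 or miR-301 with any letter, without the assays of the opposite hairpin strand, which gave 4 of the 501 assays in the deposited table: hsa-miR-130a, hsa-miR-130b, hsa-miR-301a (listed there without its letter) and hsa-miR-301b, written without the species prefix from here on. All 4 were measured in all 12 samples, and all 4 lay on card A of the 2 TaqMan array cards. The 4 groups of 3 samples each were 2102Ep cells with a non-targeting control siRNA (NC) at 15 nM, 2102Ep cells with a SOX2 siRNA (siSOX2) at 15 nM, and NTera-2 NC and NTera-2 siSOX2 cells at 30 nM. The lipid reagent that carried the siRNA also differed, so dose and transfection reagent cannot be told apart from the line in any comparison between lines. Transfection lasted 6 h and RNA was taken after a further 72 h. Each group is 1 established line treated with 1 siRNA, and its samples are labelled as biological replicates. The SOX2 transcript is not among the assays, so the depth of the knock-down was not analysed here.

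MiRNAs guide the silencing complex to messenger RNAs, mostly by pairing of their seed, bases 2 to 8 counted from the 5′ end, so miRNAs with the same seed are predicted to share many targets. The miR-130 and miR-301 family is a broadly conserved vertebrate family that is expressed in embryonic and tumour cells and has been studied for its control of growth and transforming growth factor beta signalling. SOX2 is a transcription factor that keeps embryonic stem cells and embryonal carcinoma cells undifferentiated.

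The mature sequences from RefSeq (GRCh38.p14) are shown because the seed defines the family and the rest of the sequence is what sets its members apart, with the seed in capitals. miR-454, which the number rule leaves out, carries the same seed and was followed as a relative. No mature entry was found for miR-130a, which is named only.
miR-130b: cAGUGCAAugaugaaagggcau
miR-301a: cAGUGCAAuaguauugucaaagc
miR-301b: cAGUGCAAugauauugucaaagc
miR-454: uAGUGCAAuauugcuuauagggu

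Between miR-301a and miR-301b, both 23 bases long, 2 bases differed, A10G and G11A, with the base of miR-301a first and positions counted from the 5′ end. The first 12 bases of miR-301b were shared with miR-130b. The genes lie at 3 loci. MIR301B (chr22:21652981-21653058) and MIR130B (chr22:21653304-21653385) are 245 bases apart on chromosome 22, within the annotated transcribed pseudogene LOC107985532. MIR454 (chr17:59137758-59137872) and MIR301A (chr17:59151136-59151221) lie 13263 bases apart on chromosome 17, both within the span of the protein-coding gene SKA2. MIR130A (chr11:57641198-57641286) lies on chromosome 11 within the long non-coding RNA gene MIR130AHG.

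The measurement is a Ct, the PCR cycle at which fluorescence crosses a threshold, so that a lower Ct means more RNA and a step of 1 cycle stands for roughly 1 on the log2 scale. The deposited dCt is the raw Ct after removal of a constant specific to sample and card, which on card A was the average of U6, a small nuclear RNA, and miR-16. Between 420 and 451 assays were measured per sample. As pre-amplified PCR gives no molecule counts, precision was limited by the number of samples. The miR-302 cluster and the miR-371 cluster, which mark embryonal carcinoma and embryonic stem cells, were followed as cell type markers. All 8 of these assays were measured in all samples, at group means of raw Ct from 13.93 to 26.13. In NTera-2 NC cells the share of the card with a higher Ct ran from 99.61% for miR-302b down to 48.05% for miR-371-3p. The muscle miRNA miR-206 and the blood miRNA miR-223 were also measured in all samples. Being measured therefore does not check the labelled cell type. In these bulk samples, fewer cells of a type and less RNA per cell cannot be told apart.

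In 2102Ep cells, miR-301b rose after SOX2 knock-down and was the only member to pass the test. Its dCt was 8.10, 8.23 and 8.39 in the NC samples and 7.26, 6.995 and 6.97 in the siSOX2 samples. All 3 siSOX2 samples lay above all 3 NC samples in level. The difference, siSOX2 minus NC on the log2 scale of minus dCt, was 1.17 ± 0.18 (SE, n = 3 per group; 95% confidence interval 0.77 to 1.56), or 2.24-fold, with a limma adjusted p of 0.0029. Of all 432 assays tested, 20, or 4.63%, rose at an adjusted p under 0.05, and 61, or 14.1%, changed in either direction. The call for miR-301b was made under all 18 alternative settings tried, with differences from 1.09 to 1.52 and adjusted p from 0.0018 to 0.023. Without 2102Ep siSOX2 replicate 3, whose raw Ct column was partly out of line, it was 1.11 with a limma adjusted p of 0.011.

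miR-301a, which differs from miR-301b in 2 bases and comes from another chromosome, had the next largest difference in the family. Its dCt was 6.30, 5.96 and 6.66 in NC and 5.60, 5.29 and 5.52 in siSOX2 samples of 2102Ep. The groups did not overlap, and the difference of 0.83 ± 0.28 (SE; 95% confidence interval 0.22 to 1.45) missed the adjusted threshold (limma adjusted p = 0.083). Non-overlapping groups with the higher level in siSOX2 were found for 13.9% of all assays tested, and 2 of the 4 members were among them. The interval of miR-301a, which is not adjusted for the number of assays, reaches down to 0.22 and holds the value of miR-301b.

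miR-130b, the neighbour of miR-301b on chromosome 22, had a dCt of 3.58, 4.49 and 3.37 in NC and of 4.004, 3.76 and 4.09 in siSOX2 samples of 2102Ep. The siSOX2 values lay inside the range of the NC values. The difference was -0.14 ± 0.29 (SE; 95% confidence interval -0.79 to 0.51; limma adjusted p = 0.84), an interval that ends below that of miR-301b. Its sign turned to 0.21 with RNU44 and RNU48 as the reference RNAs and to 0.08 without 2102Ep NC replicate 3.

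miR-130a, the member with its own locus on chromosome 11, varied most among the NC samples of 2102Ep. Its dCt was 0.99, 2.55 and 1.503 in NC and 1.01, 1.03 and 1.82 in siSOX2 samples, so the groups overlapped. The difference of 0.39 ± 0.39 (SE; 95% confidence interval -0.47 to 1.26) did not pass the test (limma adjusted p = 0.62) and was -0.04 without 2102Ep NC replicate 2, the sample with the lowest level.

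Over the family the median difference in 2102Ep cells was 0.61, against 0.00 over all 432 assays and -0.04 over the 264 of card A. Of the members 3 of 4 lay above 0, as did 49.8% of all assays. The mesenchymal markers measured in this line also stood higher in the 2 siSOX2 samples that gave a value, and the remaining siSOX2 sample gave none. Of the 3 listed, miR-143 and miR-145 were in the table, and the log2 of their summed level relative to the reference RNAs ran from -4.89 to -4.38 in NC and from -3.64 to -3.11 in the 2 siSOX2 samples in which either was measured. Neither passed the test by itself (limma adjusted p = 0.083 for miR-143 and 0.26 for miR-145). Their part in the rise of miR-301b was not tested.

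**Figure D1:**
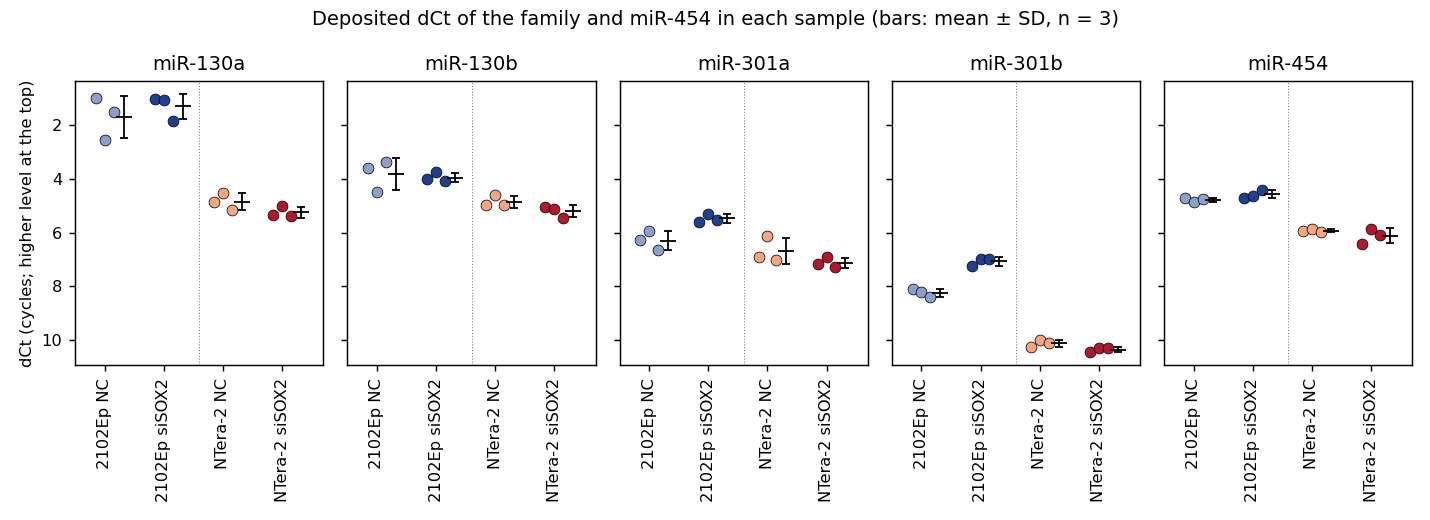
Deposited dCt in cycles, on an inverted axis so that higher levels are at the top, for the 4 members and miR-454 in each sample of the 4 groups, with the mean and SD of 3 samples beside the points. For miR-301b the 2102Ep siSOX2 samples, at 6.97 to 7.26, sit apart from the NC samples, at 8.10 to 8.39. Levels are comparable within a line and within a panel.

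In NTera-2 cells all 4 members lay slightly below NC after SOX2 knock-down and none passed the test. The differences, siSOX2 minus NC on the log2 scale of minus dCt, were -0.39 ± 0.39 (SE) for miR-130a, -0.36 ± 0.29 for miR-130b, -0.43 ± 0.28 for miR-301a and -0.24 ± 0.18 for miR-301b, with limma adjusted p from 0.43 to 0.65. At an unadjusted p of 0.05 or less, 0 of 4 passed beside 21.7% of all assays. The equal-variance test of each assay alone called 0 of 4, but it called only 9 of all 451 assays, so this count does not set the members apart. Of all 451 assays tested, 71.4% lay below 0, with a median of -0.27, beside a median of -0.38 over the family. Over the 256 assays of card A, which holds all 4 members, the median was -0.20. Only 17 assays, or 3.77%, fell at an adjusted p under 0.05.

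The dCt of miR-301b in NTera-2 cells was 10.26, 10.003 and 10.13 in NC and 10.47, 10.31 and 10.32 in siSOX2 samples. The siSOX2 samples all lay lower, by a margin far smaller than the rise in 2102Ep cells, and the 95% confidence interval of -0.63 to 0.16 ended below the rise seen there. For miR-130b the dCt was 4.97, 4.58 and 4.97 in NC and 5.03, 5.12 and 5.45 in siSOX2 samples, again without overlap. Such non-overlapping, lower groups were found for 22.8% of all assays. With the global mean as the reference, which moved the median of all assays to 0.07 and that of card A to 0.03, the 4 members still lay below 0, at -0.01 for miR-301b and as low as -0.21 for miR-301a.

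The dCt of miR-130a in NTera-2 cells was 4.86, 4.52 and 5.16 in NC and 5.34, 5.01 and 5.37 in siSOX2 samples. That of miR-301a was 6.92, 6.14 and 7.01 in NC and 7.18, 6.92 and 7.28 in siSOX2 samples. Both members had overlapping groups. In this line miR-145, the mesenchymal miRNA measured in all 6 samples, rose by 1.49 ± 0.26 (SE; limma adjusted p = 0.012), while miR-143 was not measured in any NTera-2 sample.

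Whether the response differed between the lines was tested as an interaction, the difference in NTera-2 minus that in 2102Ep. It was -1.40 ± 0.25 (SE; 95% confidence interval -1.96 to -0.84) for miR-301b, with a limma adjusted p of 0.015. That fit had no replicate block, and with the block the limma adjusted p was 0.075. The interaction was -1.26 ± 0.39 for miR-301a (adjusted p = 0.090), -0.79 ± 0.55 for miR-130a (adjusted p = 0.48) and -0.22 ± 0.41 for miR-130b (adjusted p = 0.83) in the limma fit without the block. Over all assays 17 of 385, or 4.42%, passed, and the median was -0.27, or -0.19 over the 233 assays of card A. The call for miR-301b was lost with the replicate number as a block (adjusted p = 0.075), with the global median as the reference (adjusted p = 0.082), without NTera-2 NC replicate 3 (adjusted p = 0.054) and without NTera-2 siSOX2 replicate 1 (adjusted p = 0.057), and it was kept under 19 of 23 alternatives, over which the difference ran from -1.86 to -1.21.

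miR-454, which shares the seed and lies in the same host gene as miR-301a, was not called in either line. In 2102Ep cells its dCt was 4.71, 4.88 and 4.76 in NC and 4.70, 4.62 and 4.41 in siSOX2 samples. The siSOX2 values lay just above the NC values in level, and the difference of 0.21 ± 0.19 (SE; 95% confidence interval -0.22 to 0.63) did not pass the test (limma adjusted p = 0.59). In NTera-2 cells the difference was -0.20 ± 0.19 (limma adjusted p = 0.64). The opposite strands of 2 hairpins were assayed on card B, where the dCt constant was the mean Ct of known RNAs in NTera-2 cells but could not be traced to any RNA in 2102Ep cells, so it is not known what the 2102Ep values of card B are relative to. miR-130b* differed by 0.56 ± 0.57 (SE) in 2102Ep and by -0.16 ± 0.57 in NTera-2 cells, and miR-454* by 0.60 ± 0.38 and by -0.47 ± 0.38, with limma adjusted p from 0.39 to 0.92.

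A group of 5 miRNAs whose seed is the family's seed shifted by 1 base was set beside the family. Their sequences show the shift, again with bases 2 to 8 in capitals.
miR-19a: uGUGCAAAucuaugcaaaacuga
miR-19b: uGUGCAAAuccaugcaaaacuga
miR-148a: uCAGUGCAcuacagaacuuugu
miR-148b: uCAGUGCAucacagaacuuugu
miR-152: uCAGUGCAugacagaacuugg

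In 2102Ep cells none of these 5 rose and 1 fell at the adjusted threshold, with a median of -0.17. miR-148a had a dCt of 1.77, 1.33 and 1.11 in NC and of 2.84, 3.27 and 3.68 in siSOX2 samples, groups that lay far apart. It fell by 1.86 ± 0.27 (SE; limma adjusted p = 0.0024), and 9.49% of all assays fell in this comparison. miR-152, with the same bases 2 to 8 as miR-148a, had a dCt of 8.41, 8.68 and 9.55 in NC and of 7.56, 8.02 and 7.18 in siSOX2 samples. Its groups did not overlap in the opposite direction, with a difference of 1.29 ± 0.42 that missed the threshold (limma adjusted p = 0.073). miR-19a, of the miR-17-92 cluster, differed by -0.67 ± 0.23 (limma adjusted p = 0.084), and miR-19b and miR-148b by -0.05 and -0.17. In NTera-2 cells none of the 5 passed the adjusted threshold in limma or in the equal-variance test, and 2 of 5 passed at an unadjusted p of 0.05 or less, beside 21.7% of all assays, with differences from -0.61 for miR-19a to -0.09 for miR-152.

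**Figure D2:**
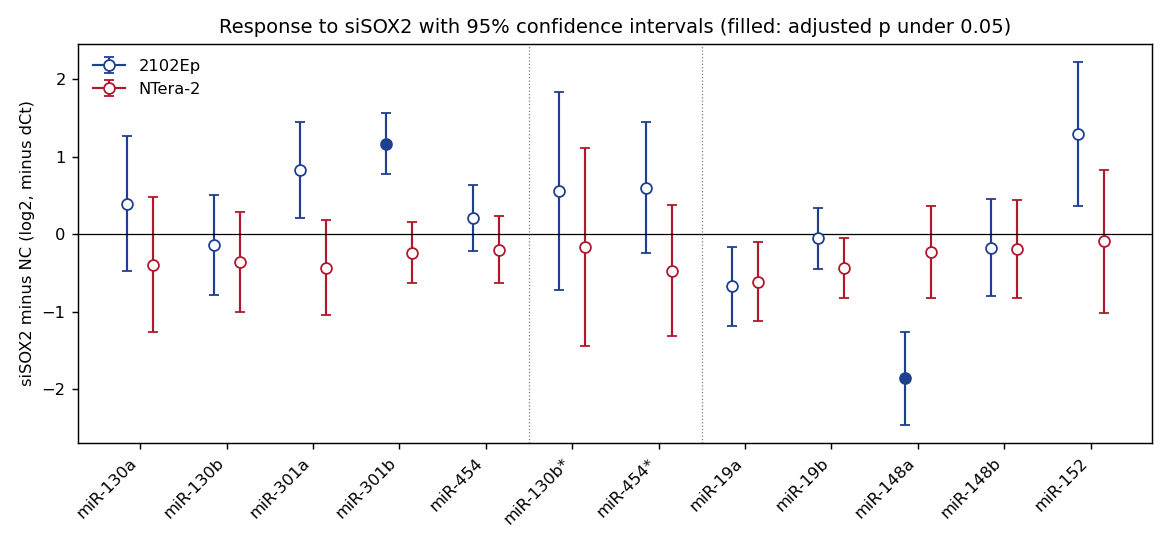
Difference between siSOX2 and NC on the log2 scale of minus dCt, with 95% confidence intervals, for the 4 members and miR-454 on the left, the opposite strands in the middle and the miRNAs with the shifted seed on the right, in 2102Ep (blue) and NTera-2 (red). Filled points passed an adjusted p of 0.05, which held for miR-301b at 1.17 and miR-148a at -1.86, both in 2102Ep cells.

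The difference in raw Ct between 2 assays of the same card and sample needs no reference RNA, so pairs of members were compared in that way. Ct values of different assays give no order of amounts, as primers differ in efficiency, and only the change of a difference between groups was read. In 2102Ep cells the Ct of miR-301b lay nearer to those of miR-130b, miR-301a and miR-454 in siSOX2 than in NC samples, without overlap. Against miR-130a the groups overlapped. There the Ct of miR-301b was higher by 7.11, 5.67 and 6.89 cycles in NC and by 6.25, 5.96 and 5.15 cycles in siSOX2 samples. The Ct of miR-301b exceeded that of miR-130b by 4.52, 3.74 and 5.03 cycles in NC and by 3.25, 3.24 and 2.88 cycles in siSOX2 samples, a change of 1.30 cycles. Against miR-454 it was higher by 3.39, 3.35 and 3.63 cycles in NC and by 2.56, 2.38 and 2.56 cycles in siSOX2 samples, a change of 0.96 cycles. The 3 siSOX2 samples were set apart from the NC samples in both pairs.

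Against its near twin miR-301a the change was smaller, from 1.81, 2.27 and 1.74 cycles in NC to 1.66, 1.70 and 1.45 cycles in siSOX2 samples, with the groups only just apart. These were the 3 of 10 pairs without overlap in 2102Ep cells, and all 3 hold miR-301b. Over all pairs of card A assays measured in every sample the share without overlap was 33.4%, so the count is near the background and no result about the family. The count of the family was 8 of 10 without 2102Ep NC replicate 2 and 5 of 10 without 2102Ep siSOX2 replicate 3. Leaving out a sample can only keep or raise such a count, in either line. No share of all pairs was set beside the counts with a sample left out, so nothing is concluded from them. In NTera-2 cells 0 of 10 pairs were without overlap, beside 28.9% of all such pairs, with 1 of 10 without NTera-2 NC replicate 3 and 2 of 10 without NTera-2 siSOX2 replicate 1. Between the NC samples of the lines 8 of 10 pairs were without overlap, beside 77.6% of all such pairs. With 3 samples against 3 the two-sided exact permutation test cannot go below p = 0.1, so none of the 30 comparisons could pass, and the smallest value adjusted over all 30 was 0.27.

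**Figure D3:**
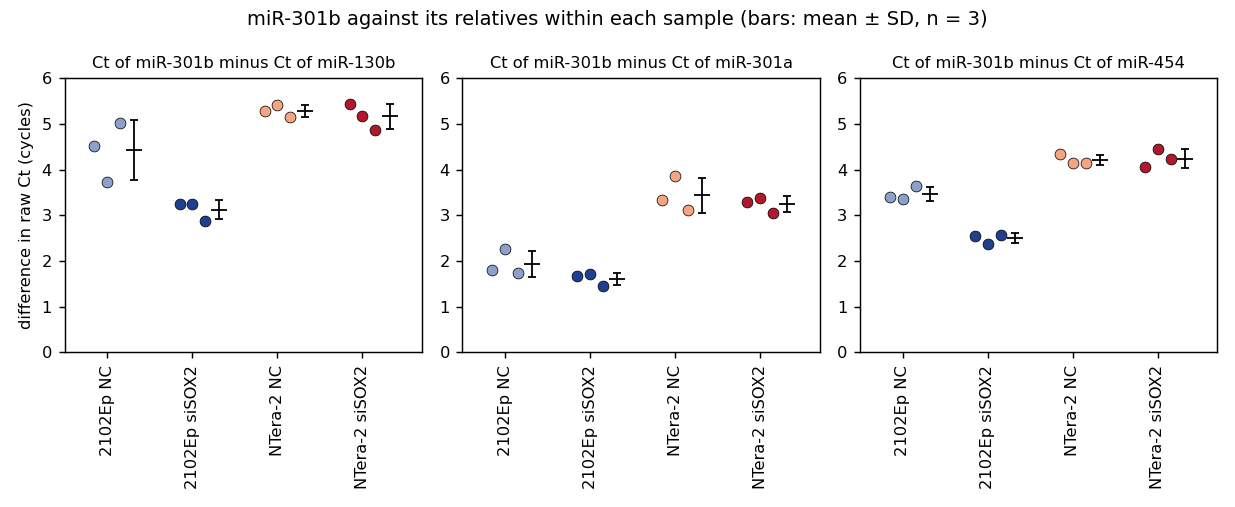
Raw Ct of miR-301b minus that of miR-130b, miR-301a and miR-454 in each sample, in cycles, with the mean and SD of 3 samples beside the points. The pair with miR-130a, whose 2102Ep groups overlapped, is not drawn. A lower value means more miR-301b relative to the other miRNA, and in each panel the 2102Ep siSOX2 samples lie below the 2102Ep NC samples, while the NTera-2 groups overlap.

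The lines were compared on the raw Ct set against the mean of each sample over the card, a choice that takes this mean as equal between the lines. U6 had a mean raw Ct of 14.89 ± 0.05 (SD, n = 3) in 2102Ep NC and 10.81 ± 0.18 in NTera-2 NC samples, and miR-16 of 21.56 ± 0.24 and 18.57 ± 0.45, whereas the mean over the 224 assays of card A measured in all samples was 24.21 ± 0.09 and 24.31 ± 0.38. RNU44 on card A, at 17.33 ± 0.23 and 16.28 ± 0.58, and RNU48, at 18.54 ± 0.11 and 16.75 ± 0.57, also had a lower Ct in NTera-2 NC samples. Which reference holds between the lines was not tested. The level given next is the log2 distance of a miRNA above the card mean.

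Relative to the card mean, miR-130b, miR-301a and miR-301b were higher in NTera-2 than in 2102Ep cells, and miR-130a was not called different. The level of miR-301a was -0.46, 0.21 and -0.71 in 2102Ep NC and 2.79, 3.46 and 2.52 in NTera-2 NC samples. That of miR-130b was 2.25, 1.67 and 2.58 in 2102Ep NC and 4.74, 5.02 and 4.57 in NTera-2 NC samples. Like miR-301b, neither had any overlap between the lines. No share of all assays was set beside this, so nothing is concluded from it. The differences, NTera-2 NC minus 2102Ep NC, were 3.27 ± 0.36 (SE) for miR-301a, 2.63 ± 0.31 for miR-130b and 1.77 ± 0.22 for miR-301b, with limma adjusted p from 0.00028 to 0.00046.

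miR-130a had a level of 4.84, 3.61 and 4.44 in 2102Ep NC and of 4.85, 5.08 and 4.38 in NTera-2 NC samples, and its difference of 0.50 ± 0.38 (SE; 95% confidence interval -0.42 to 1.41) did not pass (limma adjusted p = 0.28). Differences between the lines were the rule in this table. Of 384 assays 280, or 72.9%, passed, and 151, or 39.3%, were higher in NTera-2 cells. miR-454 was higher by 2.52 ± 0.21, and the opposite strands miR-130b* and miR-454* by 2.86 ± 0.55 and 2.64 ± 0.50, with limma adjusted p from 7.8e-05 to 0.0031.

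The sign of these line differences depended on the reference. With the deposited dCt the median of card A moved from 0.16 to -3.50 and with U6 alone to -4.05, and miR-301a then stood at -0.39 and -0.94, miR-130b at -1.03 and -1.58, miR-301b at -1.89 and -2.43, and miR-130a at -3.16 and -3.71. A change of reference moves all assays of a card together and leaves their order as it was. Relative to the median of card A, miR-301a was higher by 3.11, miR-130b by 2.47, miR-301b by 1.61 and miR-130a by 0.34 in NTera-2 NC cells. Of the other assays of card A, 92.7% had a smaller difference than miR-301a, 86.6% than miR-130b, 73.7% than miR-301b and 56.9% than miR-130a.

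After SOX2 knock-down the gap between the lines was 2.57 ± 0.24 (SE) for miR-130b, 2.17 ± 0.22 for miR-301a, 0.53 ± 0.21 for miR-301b and -0.13 ± 0.26 for miR-130a. The first 2 passed (limma adjusted p = 0.00012 and 0.00015), miR-301b did not (limma adjusted p = 0.052) and neither did miR-130a (limma adjusted p = 0.68), beside 75.5% of all assays. The value for miR-301b passed under 8 of 15 alternatives, in both directions.

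**Figure D4:**
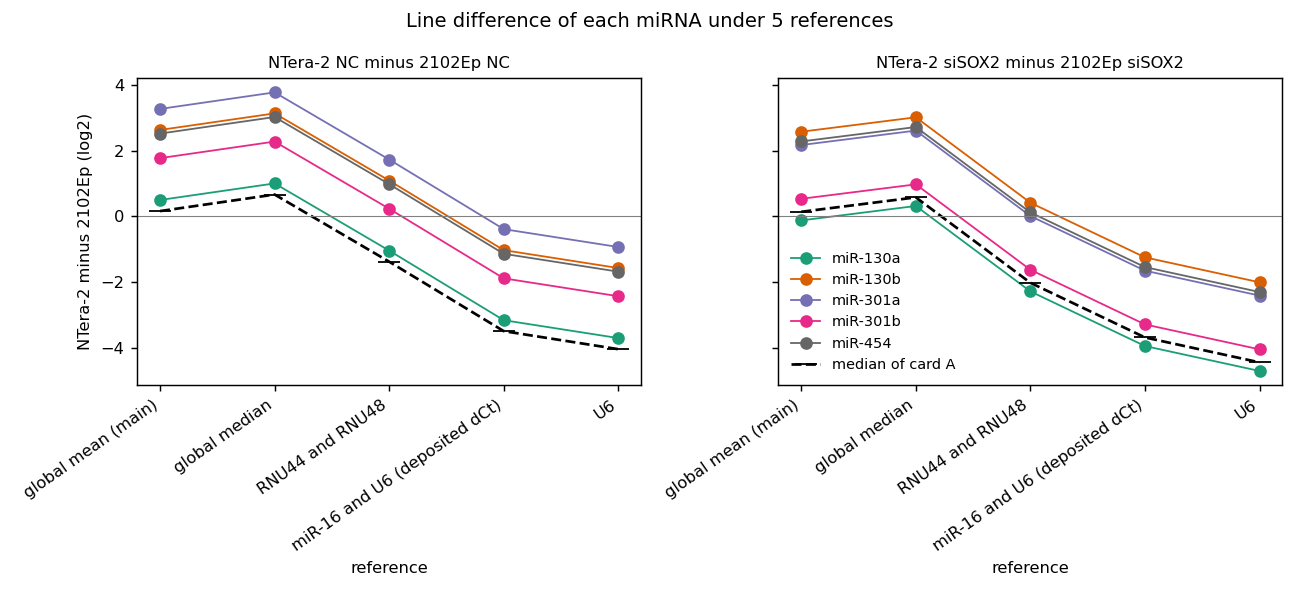
Difference between NTera-2 and 2102Ep cells on the log2 scale for the 4 members and miR-454 under 5 references, in NC samples (left) and siSOX2 samples (right), with the median of all card A assays as a dashed line. All lines move in parallel from reference to reference, and miR-301a stands 3.11 above the median in NC samples at the main setting.

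Over the 4 groups miR-301a and miR-301b had the same order of mean levels, while miR-130b and miR-130a did not differ within a line beyond their spread. For miR-301b the level ran from -2.26 ± 0.19 (SD, n = 3) in 2102Ep NC through -1.06 ± 0.24 in 2102Ep siSOX2 to -0.52 ± 0.07 in NTera-2 siSOX2 and -0.51 ± 0.10 in NTera-2 NC samples, and the last 2 did not differ beyond their spread. miR-301a had the same order, from -0.32 ± 0.47 through 0.54 ± 0.17 and 2.72 ± 0.24 to 2.92 ± 0.48 in NTera-2 NC, again with the NTera-2 groups within their spread. For miR-130b the 2102Ep groups, at 2.06 ± 0.13 in siSOX2 and 2.17 ± 0.46 in NC, did not differ beyond their spread, nor did the NTera-2 groups at 4.64 ± 0.35 and 4.78 ± 0.23. For miR-130a all 4 groups lay between 4.30 ± 0.63 and 4.77 ± 0.36, within the spread of their samples.

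The likeness of patterns was measured as the root mean square difference over the 12 samples between centred levels, among the other assays measured in all of them. It is a description, and much of it comes from the gap between the lines. Closest to miR-301b were miR-24 (0.25), miR-424 (0.25) and miR-328 (0.35), against a median of 1.17 over all assays. miR-130b, encoded next to it, ranked 130 at 0.91, behind miR-130a at rank 63, miR-454 at rank 72 and miR-301a at rank 106.

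Closest to miR-301a were miR-302c (0.28), miR-331 (0.36) and miR-151-5P (0.39), and miR-454 followed at rank 4 (0.39). Closest to miR-130b were miR-222 (0.27), miR-17 (0.27) and miR-590-3P (0.28), with miR-454 at rank 10 (0.34). For miR-130a the nearest were miR-425-5p (0.40), miR-340 (0.40) and miR-27a (0.41), and no other member or miR-454 came closer than miR-301b at rank 55 (0.69).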

How the data were processed

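TaqMan array cards were used to quantify miRNAs in 12 samples, which their labels place in 4 groups of 3. The authors exported raw Ct values, on the log2 scale, from DataAssist, and made the deposited dCt, also on the log2 scale, with 1 constant taken off for each sample and card. Another deposited table holds the authors' fold change (a ratio) and p-value per line and was not used. In the raw Ct column of 2102Ep siSOX2 replicate 3, values from row 106 on stood 1 measured row out of line. Of 339 such values 99.7% matched the dCt plus the constant after a move of 1 row, within 0.02 cycles. The median distance from replicates 1 and 2 fell from 3.02 to 0.443 cycles. The raw Ct of the assays in this sample was therefore rebuilt as the dCt plus the constant, and its RNU44, RNU48 and U6 values were moved by 1 row. The values out of line include miR-301a, miR-301b and miR-454.

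A Ct of 40 was taken as not measured. Assays measured in at least 2 of 3 samples of each group compared were tested with limma 3.58.1 in R 4.3.3 (lmFit, eBayes, two-sided) on minus dCt with 4 group means over 12 samples, which was tested on simulated data first. P-values were adjusted over all assays tested (Benjamini-Hochberg) and called under 0.05. The lines were compared on raw Ct set against the mean of the sample and card, in the 6 samples compared. Pairs of assays were compared with exact permutation tests (scipy 1.17.1). Members, relatives and lists were chosen with earlier results of these data known. Named are the members, miR-454, opposite strands, the shifted-seed miRNAs, the 3 assays most like each member, reference RNAs and cell type markers. Of these markers, muscle (miR-133a and miR-206) and blood (miR-142-3p and miR-223) miRNAs gave no call where tested. miR-142-3p was not measured in any 2102Ep sample and was tested in NTera-2 cells only. In the pluripotency list miR-372 fell by 1.40 in NTera-2 cells (limma adjusted p = 0.027). miR-122, miR-1 and miR-214 were not analysed here.

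Sequences and positions came from RefSeq tables (GRCh38.p14). Of the 4 members, 3 had a mature entry. Pairing by replicate number was checked on each sample's deviation from its group mean. Same-numbered NC and siSOX2 samples had correlations over assays of 0.118, 0.265 and 0.159 for NTera-2, and of 0.157, 0.168 and 0.0635 for 2102Ep. Each of these values exceeded every correlation between differently numbered samples of its line. The largest such correlation was 0.0378 (2102Ep) or 0.0538 (NTera-2). Both lines thus showed the same pattern of pairing. The main limma fits held no replicate block, so their p-values leave this pairing aside. No replicate was identical to another of its group over all assays measured in both. Alternatives were other reference RNAs or means, filters on Ct, unmeasured values at Ct 40, other forms of the test, a replicate block, and each sample left out in turn.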

Additional observations from a re-analysis of the deposited data

Results flagged for a closer look

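In the fit without a replicate block, the response of miR-301b to siSOX2 differed between the lines by -1.40 on the log2 scale (NTera-2 minus 2102Ep, limma interaction term, adjusted p = 0.015, over the alternatives from 0.0021 to 0.082). With the replicate number as a block (same-numbered samples had the higher correlations in both lines), the difference did not pass (limma adjusted p = 0.075), and 1 of 385 assays passed. The response lay at 1.17 in 2102Ep and at -0.24 in NTera-2 cells.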

How the results depend on the processing

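The rise of miR-301b in 2102Ep cells kept its direction and passed the threshold under all 18 alternatives. The line difference in response for miR-301b lost its call under 4 of 23, given in the report and including the replicate block, with the cause not tested. The samples of each group (n = 3) and the lack of molecule counts limit precision.

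Counts of calls moved as follows. In 2102Ep cells 61 became 39 with the equal-variance test and 37 to 53 with a sample left out (39 without NC replicate 1, 37 without NC replicate 3, 40 without siSOX2 replicate 1). In NTera-2 cells 25 became 13 when RNU44 and RNU48 were the reference, 15 for the global mean, 16 for the global median, 9 with the equal-variance test, 11 in the 6 samples of the line alone and 10 to 24 with a sample left out (10 without NC replicate 3, 15 without siSOX2 replicate 1, 14 without siSOX2 replicate 2). For the difference in response, 17 became 10 with the global median, 34 with unmeasured values at Ct 40, 34 with RNU44 and RNU48, 28 with the equal-variance test and 4 to 26 with a sample left out. Pairs without overlap were 3 to 8 in 2102Ep, 0 to 2 in NTera-2 and 8 to 9 between the lines with a sample left out, which can only keep or raise such a count. With the replicate block 7 assays passed in NTera-2 cells, 48 in 2102Ep cells and 1 for the difference in response, and among the members the block changed no call other than that of miR-301b in the difference of response.

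In 2102Ep cells signs turned for miR-130b (0.21), miR-19b (0.30) and miR-148b (0.18) with RNU44 and RNU48, for miR-19b (0.02) with the global median, and with a sample left out for miR-130a (-0.040 to 0.74), miR-130b (-0.48 to 0.084) and miR-19b (-0.13 to 0.017). In NTera-2 cells they turned for miR-454 (0.028), miR-130b* (0.35), miR-454* (0.035), miR-148b (0.031) and miR-152 (0.13) with the global mean, for miR-130b* (0.28), miR-148b (0.0013) and miR-152 (0.10) with the global median, and with a sample left out for miR-130b* (-0.48 to 0.22), miR-148b (-0.44 to 0.011) and miR-152 (-0.47 to 0.15). The difference in response of miR-130b ran from -0.44 to 0.12 with a sample left out. None of these values passed the threshold at either sign.

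Between the NC samples of the lines, the difference with the deposited dCt was -3.16 for miR-130a, -1.03 for miR-130b, -0.39 for miR-301a, -1.89 for miR-301b, -1.14 for miR-454, -5.45 for miR-130b* and -5.67 for miR-454*. The last 2, like those of the siSOX2 samples for the same assays, set card B constants of different origin against each other, since that of 2102Ep cells was not traced. With U6 it was -3.71 for miR-130a, -1.58 for miR-130b, -0.94 for miR-301a, -2.43 for miR-301b and -1.69 for miR-454, and with RNU44 and RNU48 it was -1.04 for miR-130a. Between the siSOX2 samples it was -1.25 for miR-130b, -1.66 for miR-301a, -3.29 for miR-301b, -1.55 for miR-454, -6.17 for miR-130b* and -6.74 for miR-454* with the deposited dCt. It was -2.01 for miR-130b, -2.41 for miR-301a, -4.05 for miR-301b and -2.31 for miR-454 with U6. With RNU44 and RNU48 it was -1.63 for miR-301b, -0.65 for miR-130b* and -1.21 for miR-454*, and with the global median 0.31 for miR-130a. The construction of these alternatives moves all assays of a card by 1 amount, and the median of card A moved with them.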
